A study of Homo sapiens with 16 samples.

Results

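The transcripts described here encode cell surface antigens and cytokine receptors of myeloid leukaemia, proteins by which blasts are typed, take up growth signals or are targeted by antibodies and engineered cells. A list of 47 genes was read by gene symbol, and for each gene the single-symbol probe set with the highest mean signal was used. Of these, 45 genes were found among the 19775 genes with such a probe set. The other 2 had none in the annotation used here and were not analysed here. A gene was tested when its signal reached the array median, 6.73 on the log2 scale, on at least 2 of the 16 arrays. This held for 43 of the 45 and for 14038 genes in all. PROM1, the stem cell antigen CD133, stayed between 3.78 and 4.51 on every array, and CD180, a Toll-like receptor homologue of B cells and monocytes, between 5.90 and 7.01 with 1 array at the median. Neither was tested.

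The study asked what azacitidine does to 4 acute myeloid leukaemia cell lines, AML-193, HNT-34, KG1a and HL60. Cells of every group grew in light-label SILAC medium, that is, medium with ordinary lysine and arginine. The treated groups received 0.5 μM azacitidine (AZA) each day for 3 days and the control groups DMSO vehicle on the same days. All were then kept 4 days without drug before total RNA was hybridised to Affymetrix U133 Plus 2.0 arrays. The 8 groups are thus vehicle and AZA in each line, with 2 arrays in each. Each line stands for 1 leukaemia. Whether the paired arrays of a group came from different cultures is not given in the labels, so the p-values rest on a spread between samples that may be technical.

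Surface antigens of this kind fall into several families. Growth factor and cytokine receptors (KIT, FLT3, CSF2RA and others) bind soluble ligands and signal through kinases and STAT proteins, while Siglecs, C-type lectins and LILR proteins recognise sugars or immune ligands and often carry inhibitory motifs. Tetraspanins organise other membrane proteins into patches, complement regulators keep complement from attacking the cell that carries them, and CD47 signals to phagocytes through SIRPA. Azacitidine resembles cytidine, enters both kinds of nucleic acid, and in DNA it binds methyltransferases for good, so that methylation of CG dinucleotides falls as cells divide. A change of transcript in a bulk sample can reflect fewer cells of a type or less RNA per cell, and these cannot be told apart here.

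The arrays held together by line. Over the tested genes, Pearson's r was 0.995 to 0.998 within a group, 0.969 to 0.989 between vehicle and AZA of a line, and 0.796 to 0.910 from line to line. Markers of other cell types were used to check the labels. The monocytic list averaged 9.48 in vehicle AML-193 and 9.13 in HL60 against 6.96 in HNT-34 and 7.37 in KG1a. The granulocyte precursor list averaged 10.36, 10.26, 6.19 and 6.52 in the same order, and the stem and progenitor list 6.56, 6.57, 10.50 and 9.53. Some defining markers were low: CD14 was 5.87 in vehicle AML-193, and MPO was 5.90 in HNT-34 and 6.75 in KG1a. Outside the myeloid lists, IGHM reached 12.08 in HNT-34 and 11.27 in KG1a, and KRT18 reached 12.74 in HNT-34. The epithelial marker EPCAM stayed at or below 4.33 in every vehicle group. The RNA differed in quality between arms of 2 lines. The signal of the 3′ minus the 5′ control probe sets of ACTB and GAPDH was 1.27 ± 0.463 (SD, n = 2) in vehicle AML-193 and 0.198 ± 0.0433 after AZA, and 0.0443 ± 0.0116 in vehicle HL60 and 0.722 ± 0.163 after AZA. In HNT-34 and KG1a all group means of this measure lay between -0.102 and 0.0587. Member calls in AML-193 and HL60 that were lost with this measure as a covariate are named with their covariate values beside the result or in the paragraph on that fit. In both lines the measure went largely with the arm, so that fit cannot well separate it from AZA. Its widest replicate gap was in vehicle AML-193, at 1.59 and 0.94. A call can be lost through a larger standard error, so its loss does not say that RNA quality made the change.

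The promoters of CD9, CD52, SIGLEC6 and KIT are shown because these genes had the largest rises in a line among members with an entry in the promoter table, and because they differ in how many CG dinucleotides, the sites where DNA is methylated, they hold. Each is the 250 bases before the annotated start in RefSeq, build GRCh38.p14, written 5′ to 3′ on the strand of the gene, with every CG in capitals. CD9 lies at chr12:6199696-6199945 on the plus strand, CD52 at chr1:26317708-26317957 on the plus strand, SIGLEC6 at chr19:51531671-51531920 on the minus strand, and KIT at chr4:54657707-54657956 on the plus strand.
CD9: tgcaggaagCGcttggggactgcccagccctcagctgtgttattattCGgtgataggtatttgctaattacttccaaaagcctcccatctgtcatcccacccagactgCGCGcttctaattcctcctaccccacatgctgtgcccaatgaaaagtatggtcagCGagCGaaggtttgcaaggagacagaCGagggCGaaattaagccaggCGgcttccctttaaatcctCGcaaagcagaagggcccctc
CD52: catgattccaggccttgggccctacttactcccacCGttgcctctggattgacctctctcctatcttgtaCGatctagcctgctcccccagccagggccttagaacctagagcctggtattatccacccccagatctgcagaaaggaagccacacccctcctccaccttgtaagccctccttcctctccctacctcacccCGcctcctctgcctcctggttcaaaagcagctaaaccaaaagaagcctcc
SIGLEC6: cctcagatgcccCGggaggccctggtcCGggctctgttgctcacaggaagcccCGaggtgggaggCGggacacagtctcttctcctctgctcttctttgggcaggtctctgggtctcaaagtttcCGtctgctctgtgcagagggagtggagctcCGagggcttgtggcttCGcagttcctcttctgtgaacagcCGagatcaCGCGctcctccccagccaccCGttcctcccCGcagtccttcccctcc
KIT: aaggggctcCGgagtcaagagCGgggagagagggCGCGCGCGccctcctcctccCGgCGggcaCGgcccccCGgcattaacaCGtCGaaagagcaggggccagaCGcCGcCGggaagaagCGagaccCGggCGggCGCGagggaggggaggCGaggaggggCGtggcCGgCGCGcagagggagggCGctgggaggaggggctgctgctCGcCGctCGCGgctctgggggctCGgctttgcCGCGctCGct
The CG dinucleotide occurred 10 times in the CD9 window, 3 times in that of CD52, 12 times in that of SIGLEC6 and 34 times in that of KIT. Of the 45 members, 35 had an entry, and CLEC7A, CD93, THY1, CD70, CD7, NCAM1, CD84, SPN, CD37 and CD81 had none. The median member promoter held 9 CG dinucleotides, against 11 over all 27305 promoters of this length in the table, of which 93.61% held at least 1. A count of 15 or more was found in 10 of the 35 (28.57%) and in 42.72% of all promoters. The 7 members with an entry that rose at least 2-fold in a line had a median of 10 (range 3 to 34), the 7 that fell at least 2-fold had 9 (4 to 26), and the 20 tested members that reached neither had 8 (0 to 39). CD48 is counted in both directions. Methylation itself was not analysed here.

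Before any AZA, the lines differed in nearly every member. Comparisons of vehicle AML-193 with other lines carry a difference in RNA quality. The 3′ minus 5′ measure was 1.27 there, against -0.0033 in HNT-34, 0.0305 in KG1a and 0.0443 in HL60. Vehicle values are given without the covariate, and the part of RNA quality in them was not tested. Vehicle levels differed between the lines for 42 of the 43 tested members by limma's moderated F-test (adjusted p under 0.05), against 85.1% of all tested genes. The exception was THY1, a glycoprotein of stem cells and fibroblasts, at 6.69 to 7.07 on the 8 vehicle arrays. The distance between the highest and the lowest line had a median of 2.34 over the members and 0.82 over all tested genes. It passed 4 in 13 members (30.2%) and in 4.57% of all genes. Ordered from the highest to the lowest line, 91 of the 129 gaps between neighbouring lines passed the test (43.8% over all tested genes). All 3 gaps did so in 12 members, a count that was not taken over all tested genes.

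**Figure D1:**
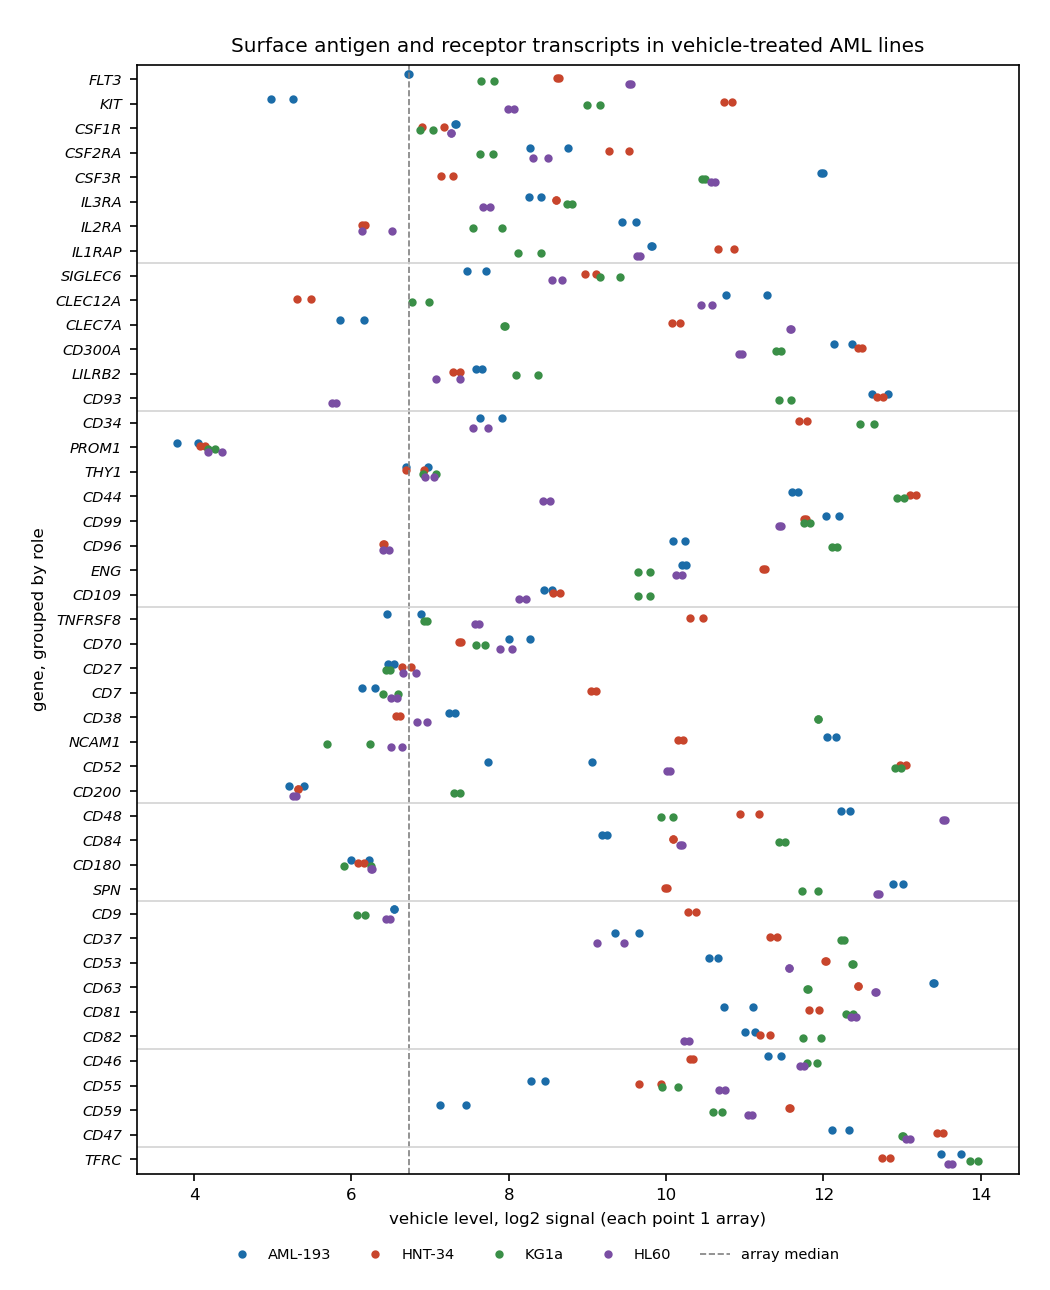
Vehicle level (x axis, log2 signal) of each of the 45 members (y axis, grouped by role), with 1 point per array, 2 arrays per line and 4 colours for the lines; the dashed line is the array median of 6.73. CD93 lies at 5.76 and 5.80 in HL60 and above 11 in the other lines, and CD38 lies at 11.93 in KG1a and at or below 7.32 in the other lines.

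CD93, a C-type lectin-like receptor of stem and endothelial cells, showed the widest distance. It read 12.62 and 12.82 in AML-193, 12.68 and 12.76 in HNT-34 and 11.58 and 11.44 in KG1a, but 5.80 and 5.76 in HL60. HNT-34 and AML-193 did not differ in it beyond their spread. CLEC12A, an inhibitory lectin of myeloid cells, was high in AML-193 (11.28 and 10.76) and HL60 (10.58 and 10.45) and low in KG1a (6.99 and 6.77) and HNT-34 (5.30 and 5.48). NCAM1, the adhesion molecule CD56, read 12.05 and 12.16 in AML-193 and 10.21 and 10.15 in HNT-34, with 6.50 and 6.65 in HL60 and 6.23 and 5.69 in KG1a. These 2 genes had no overlap between any of the 4 lines.

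The antigens that define progenitors were split between lines. CD34, a sialomucin of progenitor cells, read 12.46 and 12.64 in KG1a and 11.80 and 11.69 in HNT-34, against 7.64 and 7.91 in AML-193 and 7.73 and 7.55 in HL60. CD38, an enzyme that consumes NAD and marks committed cells, was high in KG1a alone, at 11.93 on both arrays, and read 7.24 and 7.32, 6.62 and 6.57, and 6.96 and 6.84 in AML-193, HNT-34 and HL60. CD96, an immunoglobulin-family receptor described on leukaemia stem cells, stood at 12.11 and 12.17 in KG1a and 10.09 and 10.24 in AML-193, and at 6.40 to 6.48 on the HNT-34 and HL60 arrays. CD44, the hyaluronan receptor, was lowest in HL60 (8.44 and 8.52) and read 11.60 to 13.18 elsewhere.

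Receptors were split in other ways. KIT, the receptor of stem cell factor, read 10.73 and 10.84 in HNT-34, 9.16 and 8.99 in KG1a, 7.99 and 8.07 in HL60 and 5.25 and 4.98 in AML-193, with no overlap between neighbours. FLT3, the FLT3 ligand receptor, was highest in HL60 (9.56 and 9.54) and, like KIT, lowest in AML-193 (6.73 and 6.72), with 8.61 and 8.63 in HNT-34 and 7.65 and 7.81 in KG1a. CSF3R, the G-CSF receptor, was highest in AML-193 (11.97 and 12.00) and lowest in HNT-34 (7.14 and 7.29), while HL60 and KG1a did not differ beyond their spread. IL3RA, the IL-3 receptor alpha chain CD123, spanned only 7.67 to 8.81 over the vehicle arrays, yet HL60 was below AML-193 by 0.61 ± 0.08 (SE, limma adjusted p = 2.05e-05). CSF1R, the M-CSF receptor, lay between 6.87 and 7.32, and none of its 3 neighbouring gaps passed the test.

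Counting the members in which a line was the highest by a gap that passed the test gave 7 for AML-193, 10 for HNT-34, 11 for KG1a and 4 for HL60. The HNT-34 members included KIT, IL1RAP, TNFRSF8, CD7 and CD9, and the KG1a members CD34, CD96, CD38, CD109 and CD200. CD200 passed the filter only through the KG1a vehicle arrays. HL60 was the highest for FLT3, CLEC7A, CD48 and CD55. AML-193 was the lowest in 12 members by the same rule, among them KIT, CLEC7A, CD52, CD53, CD55 and CD59, and each other line in 7. The AML-193 counts carry the RNA quality difference of its vehicle arrays. These counts of highest and lowest lines were not taken over all tested genes, so they do not set the members apart.

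After AZA, member transcripts changed in every line, and the members that moved were often not the same between lines. In AML-193, 29 of 43 passed the limma test (adjusted p under 0.05), 21 higher and 8 lower, against 41% of all tested genes, 20.7% higher and 20.3% lower. In HNT-34, 28 passed, 14 in each direction, against 30.2% of all genes, 15.4% higher and 14.8% lower. KG1a had 15 calls, 12 higher and 3 lower, against 9.93% of all genes, 6.56% higher and 3.37% lower. HL60 had 27, 18 higher and 9 lower, against 41.3% of all genes, 25.2% higher and 16% lower. In the mean effect over the 4 lines 30 passed, 20 higher and 10 lower, against 39.9% of all genes, 23.4% higher and 16.5% lower. The median log2 change of the members was 0.29, 0.12, 0.05 and 0.18 in AML-193, HNT-34, KG1a and HL60, beside 0.02, 0.01, 0.02 and 0.05 for all tested genes. Over the 172 pairs of a member and a line, 99 (57.6%) passed, against 30.6% of all such pairs. The members were chosen with earlier results of these data known, so an excess over all genes can be built in by that choice. This holds for every share of members set beside all genes, vehicle levels included. The KG1a count rested on both AZA arrays of that line: without AZA replicate 1 or without AZA replicate 2 it was 9. With the RNA quality covariate the counts were 7 in AML-193 and 16 in HL60, of which 7 and 15 were calls of the fit without it in the same direction, and 29 and 18 in HNT-34 and KG1a. In the covariate fit 2.66% of all tested genes were called in AML-193 and 32.5% in HNT-34. Its shares for HL60 and KG1a are not given here, so those counts are not set against all genes.

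Changes of at least 2-fold (1 on the log2 scale) that passed the test numbered 6 in AML-193, 10 in HNT-34, 2 in KG1a and 7 in HL60, against 3.03%, 3.45%, 1.01% and 3.49% of all tested genes. They came from 17 members. In 3 pairs, CLEC7A in AML-193 and CD9 and CD93 in HL60, the vehicle mean lay below the mean of genes of other tissues read as a background (6.38 and 6.52 in the vehicle arms of these lines), so their log2 changes compare signals and are not a fold of transcript. Since all 25 pairs were picked by size and p-value on these same arrays, overlap and left-out arrays give no separate support for them. The vehicle and AZA arrays did not overlap in any of the 25, and none lost its call when any 1 of the 16 arrays was left out. With the RNA quality covariate only CD59 in AML-193 lost it.

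**Figure D2:**
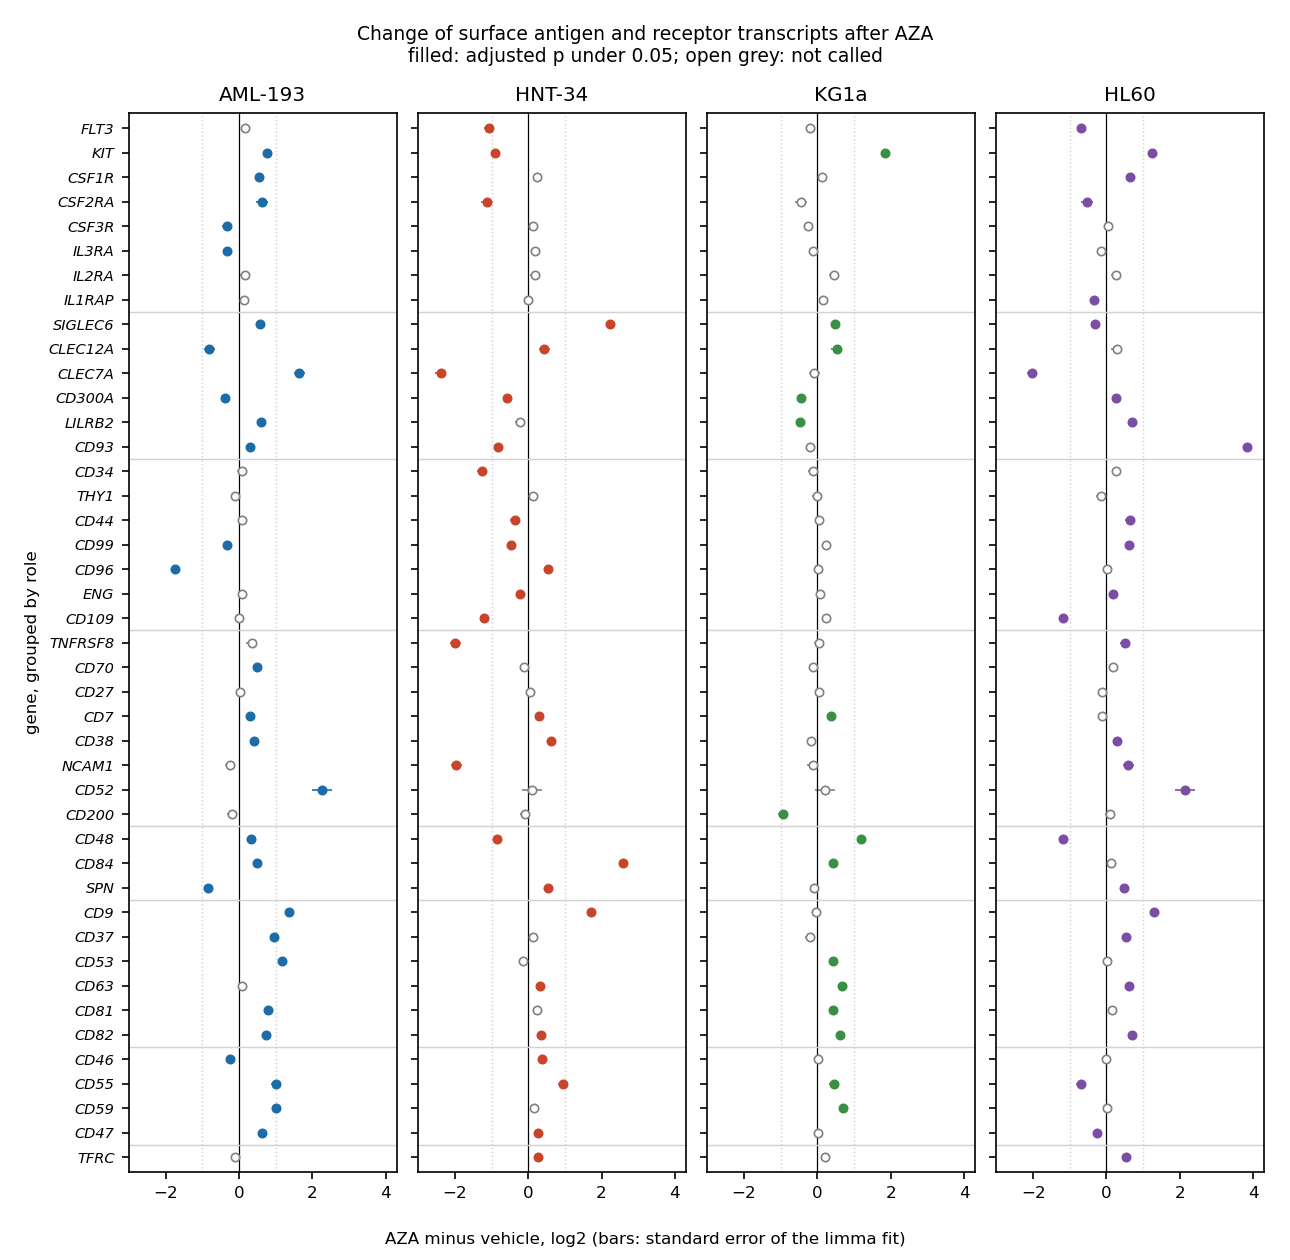
AZA minus vehicle (x axis, log2) with the standard error of the limma fit, for the 43 tested members (y axis, grouped by role) in 4 panels for the lines; filled points passed adjusted p under 0.05, and dotted lines mark a 2-fold change. The farthest point is CD93 in HL60 at 3.84, and the 6 tetraspanins from CD9 to CD82 have no filled point below 0.

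Among the receptors of growth factors and cytokines, AZA moved the same receptor in opposite directions in different lines. KIT rose in KG1a, from 9.16 and 8.99 on the vehicle arrays to 10.93 and 10.92, a change of 1.85 ± 0.11 (SE; limma adjusted p = 1.5e-07). In HL60 it rose from 7.99 and 8.07 to 9.39 and 9.17 (1.25 ± 0.11, adjusted p = 1.8e-06), and in AML-193 from 5.25 and 4.98 to 5.80 and 5.99 (0.78 ± 0.11), where all 4 arrays stayed below the array median. In HNT-34, the line with the most KIT, it fell from 10.73 and 10.84 to 9.89 on both arrays (-0.90 ± 0.11, adjusted p = 2.71e-05). The arms did not overlap in any line.

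FLT3 fell in the 2 lines where it was highest. In HNT-34 it went from 8.61 and 8.63 to 7.45 and 7.63 (-1.08 ± 0.11, adjusted p = 6.98e-06), and in HL60 from 9.56 and 9.54 to 8.71 and 8.98 (-0.70 ± 0.11, adjusted p = 0.000261). AML-193 and KG1a did not pass the test, with changes of 0.17 and -0.21. CSF2RA, the alpha chain of the GM-CSF receptor, read 9.53 and 9.28 in vehicle HNT-34 and 8.21 and 8.35 after AZA (-1.12 ± 0.16, adjusted p = 0.000147). The 3 other CSF2RA probe sets changed by -1.24, -1.02 and -0.89 in that line. Its call in AML-193 (0.62) turned to -0.31 with the RNA quality covariate and that in HL60 (-0.52) to 0.07, so neither direction was stable.

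The remaining receptors moved little. CSF1R rose in AML-193 (0.56 ± 0.12, a call lost with the covariate at 0.52) and HL60 (0.65 ± 0.12). CSF3R fell by 0.34 and IL3RA fell by 0.33 on the log2 scale in AML-193, with no call in the other lines and neither called with the covariate (-0.29 and -0.045), and IL1RAP, the co-receptor of the IL-1 family, was called in HL60 (-0.35) but not with the covariate (-0.26). IL2RA, the IL-2 receptor alpha chain CD25, passed in no line (0.15 to 0.46). All 8 receptors were tested, and 3 rose and 2 fell in AML-193, 0 and 3 in HNT-34, 1 and 0 in KG1a, and 2 and 3 in HL60. Of all tested genes, 20.7% rose and 20.3% fell in AML-193, and 15.4% and 14.8% did in HNT-34. The shares were 6.56% and 3.37% in KG1a and 25.2% and 16% in HL60. Counts by role group, here and below, were not tested against these shares.

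Among lectins, Siglecs and inhibitory receptors the changes were larger. CD93 showed the largest change of any member. In HL60 it went from 5.80 and 5.76, below the array median, to 9.61 on both arrays, a rise in signal of 3.84 ± 0.08 on the log2 scale (adjusted p = 4.86e-12). Its second probe set, already at 7.68 in vehicle HL60, rose by 0.89, so the size differed between probe sets while the direction did not. In HNT-34 CD93 fell from 12.68 and 12.76 to 11.89 on both arrays (-0.83 ± 0.08, adjusted p = 3.83e-06). AML-193 gained 0.31 ± 0.08, which was 0.12 and not called with the covariate, and KG1a did not pass (-0.21).

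CLEC7A, the beta-glucan receptor Dectin-1, rose where it was lowest and fell where it was highest. AML-193 went from 6.15 and 5.85, below the array median, to 7.67 and 7.64 (1.65 ± 0.14, adjusted p = 3.34e-06). HNT-34 went from 10.18 and 10.08 to 7.75 and 7.73 (-2.39 ± 0.14, adjusted p = 4.66e-08), and HL60 from 11.58 and 11.57 to 9.83 and 9.26 (-2.04 ± 0.14, adjusted p = 3.83e-07). The AZA arrays of HNT-34 ended next to those of AML-193 and KG1a (7.80 and 7.92). The 3 other passing CLEC7A probe sets changed in the same directions, by 0.48 to 1.65 in AML-193, -2.43 to -1.54 in HNT-34 and -4.05 to -2.99 in HL60.

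SIGLEC6, a Siglec of mast cells, B cells and placenta, rose in HNT-34 from 9.11 and 8.97 to 11.27 and 11.26 (2.22 ± 0.11, adjusted p = 8.12e-09). Both other probe sets rose there too, by 2.55 and 2.60. Smaller rises passed in AML-193 (0.57) and KG1a (0.47), and HL60 fell by 0.30 on the log2 scale. With the covariate the AML-193 value was 0.02 and the HL60 value 0.05, neither of them called.

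CLEC12A fell in AML-193 from 11.28 and 10.76 to 10.12 and 10.30 (-0.81 ± 0.15), and this value was 0.05 with the covariate. It was called higher in HNT-34 (0.44) and KG1a (0.53), while HL60 did not pass (0.27). In HNT-34 CLEC12A read 5.30 and 5.48 on the vehicle arrays and 5.87 and 5.79 after AZA. Both arms lay below the mean of genes of other tissues there (6.40 and 6.51). This HNT-34 change thus compares signals at background level and is not a fold of transcript. CD300A, an inhibitory receptor for membrane lipids, fell in AML-193 (-0.37), HNT-34 (-0.59) and KG1a (-0.44) and rose in HL60 (0.27). With the covariate the AML-193 and HL60 values of CD300A were 0.064 and -0.0077, neither called, and another probe set was called higher in AML-193 (0.81). LILRB2, an inhibitory receptor for HLA class I, rose in AML-193 (0.61, a call lost with the covariate at 0.43) and HL60 (0.69) and fell in KG1a (-0.46). Monocytic markers rose in AML-193 and HL60, where LILRB2 and CSF1R rose, and also in KG1a, where LILRB2 fell and CSF1R was not called. In AML-193 9 of 11 were higher and 1 lower after AZA, with the mean over the list at 9.40 and 9.57 on the vehicle arrays and 10.58 and 10.68 after AZA. In HL60 6 were higher and 1 lower, with 9.10 and 9.17 against 9.84 and 9.92, and in KG1a 5 were higher and 0 lower, with 7.28 and 7.46 against 7.80 and 7.88. HNT-34 had 2 in each direction. Of all tested genes, 20.7% were higher and 20.3% lower in AML-193, 25.2% and 16% in HL60, and 6.56% and 3.37% in KG1a. In HNT-34 the shares were 15.4% and 14.8%, and the marker counts were not tested against any of them. With the covariate 2 of the 11 were called higher in AML-193 and 6 in HL60, and none lower. CD14 rose from 5.87 to 7.52 in AML-193 and from 8.50 to 10.11 in HL60, and with the covariate only the HL60 value was called (1.61 and 1.64). Of 9 tested granulocyte precursor markers, 6 rose and 2 fell in AML-193 and 6 rose in HL60, among them ELANE (3.67 and 2.78). With the covariate 2 of the 9 were called higher in AML-193 and 5 in HL60, and 0 lower in both, with ELANE still called (2.93 and 3.25). The part of these markers in the member changes was not tested.

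**Figure D3:**
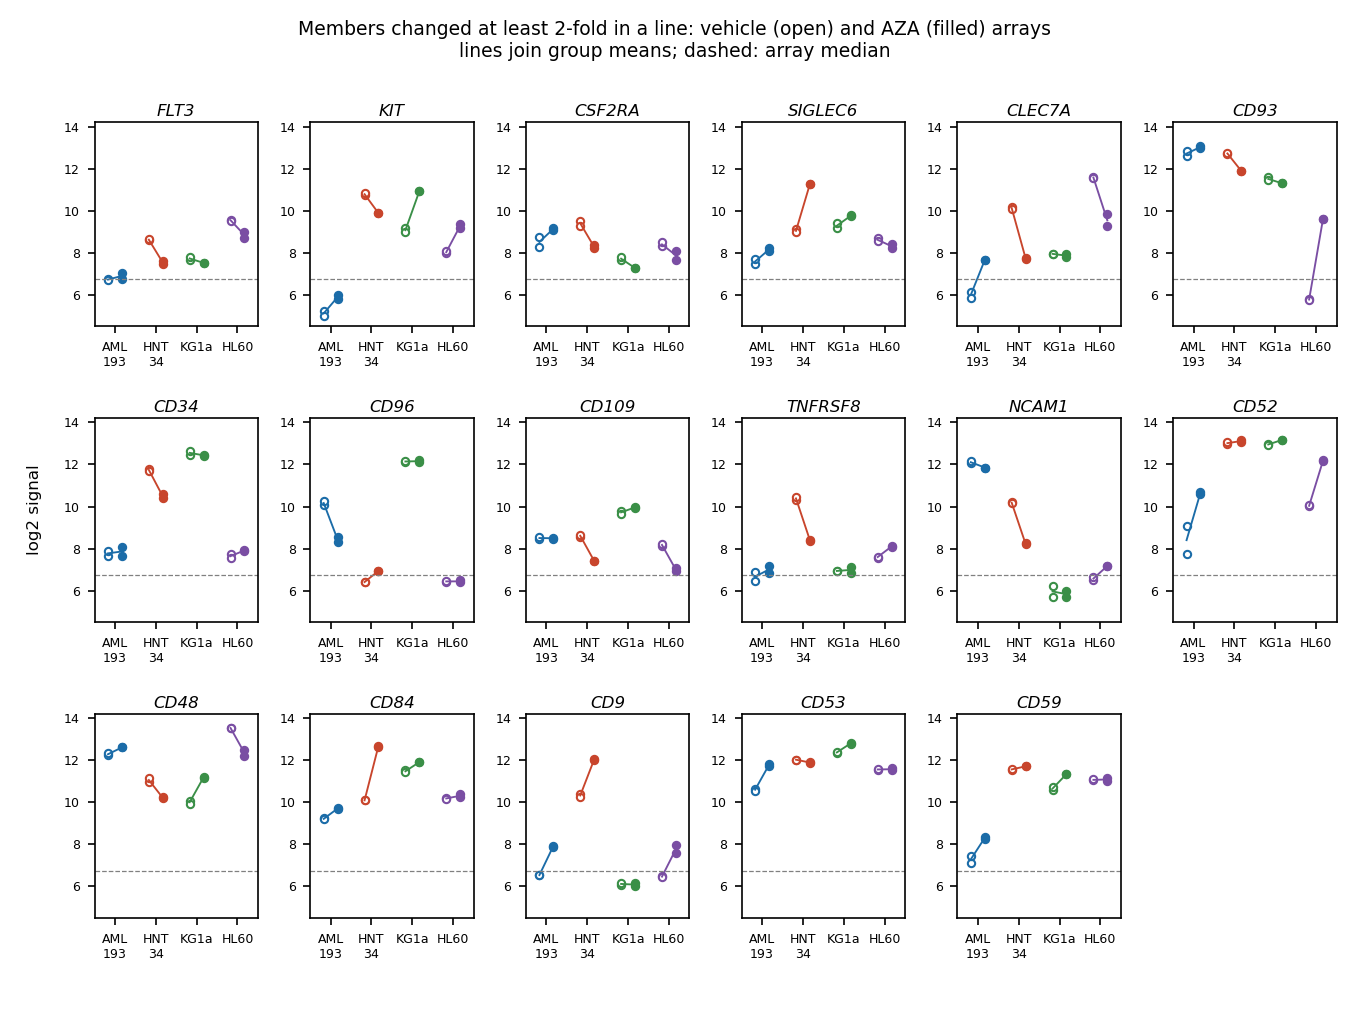
Log2 signal (y axis) on the 2 vehicle arrays (open) and 2 AZA arrays (filled) of each line (x axis) for the 17 members that changed at least 2-fold with a call in a line; lines join the group means and the dashed line is the array median of 6.73. CD93 in HL60 climbs from below the median to 9.61, and CLEC7A rises in AML-193 while it falls in HNT-34 and HL60.

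Of 7 tested stem and progenitor antigens, 1 rose and 5 fell in HNT-34, and 2 fell in AML-193. None passed in KG1a, and 3 rose and 1 fell in HL60. The separate list of stem and progenitor markers had 8 tested genes. Of these, 1 rose and 5 fell in HNT-34, 3 and 2 in AML-193, 1 and 2 in KG1a, and 3 and 3 in HL60. With the covariate 2 rose and 0 fell in AML-193, and 2 and 2 in HL60. Of all tested genes, 15.4% rose and 14.8% fell in HNT-34, and these counts were not tested against such shares. In HNT-34 CD34 went from 11.80 and 11.69 to 10.39 and 10.59 (-1.25 ± 0.13, adjusted p = 1.07e-05). In KG1a, which had still more CD34, the arrays read 12.46 and 12.64 before and 12.42 and 12.45 after, a change of -0.12 that did not pass. The effect in HNT-34 minus that in KG1a was -1.13 ± 0.19 (SE, adjusted p = 0.0011 for the difference). CD109, a membrane protein that binds TGF-beta, fell in HNT-34 from 8.56 and 8.65 to 7.41 and 7.42 (-1.19 ± 0.08, adjusted p = 1.02e-07) and in HL60 from 8.13 and 8.22 to 6.93 and 7.06 (-1.18 ± 0.08, adjusted p = 2.11e-07). Its dimmer probe sets changed by -0.49 and -0.33 in HNT-34 and by -0.18 and -0.20 in HL60.

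CD96 fell in AML-193 from 10.09 and 10.24 to 8.55 and 8.32 (-1.73 ± 0.09, adjusted p = 1.73e-08), and its second probe set fell by 1.68 on the log2 scale. In HNT-34 CD96 rose from 6.41 on both arrays to 6.95 and 6.93 (0.53 ± 0.09), near the array median. KG1a, the line with the most CD96, read 12.11 and 12.17 before and 12.19 and 12.12 after. In HL60 CD44 rose by 0.63 ± 0.12 (0.38 without AZA replicate 2), and CD99, a glycoprotein found on most blood cells, rose by 0.61 ± 0.07. CD99 fell in AML-193 (-0.32, which was -0.065 and not called with the covariate) and HNT-34 (-0.46), and CD44 fell in HNT-34 (-0.37). Other probe sets of CD44 and CD99 had the opposite sign in HL60, as did a CD44 set in HNT-34 and a CD99 set in AML-193. Endoglin, encoded by ENG, a TGF-beta co-receptor, changed by at most 0.22 in size. The KG1a values of this group ran from -0.12 to 0.23.

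Antigens shared with lymphoid cells moved in separate lines. CD52, a short glycoprotein anchored by lipid and the target of alemtuzumab, rose in the 2 lines where it was lowest. In AML-193 the vehicle arrays read 9.06 and 7.74, the widest replicate gap of any member in any group, and the AZA arrays 10.60 and 10.71 (2.26 ± 0.27, adjusted p = 4.55e-05). The value ranged from 1.59 to 2.92 when 1 array was left out, was 3.99 with the covariate and was 3.47 for the second probe set. In HL60 CD52 rose from 10.02 and 10.05 to 12.17 and 12.19 (2.15 ± 0.27, adjusted p = 5.15e-05), which was 1.05 with the covariate and 2.65 for the second probe set. HNT-34 and KG1a read 12.92 to 13.18 on all 8 arrays, with no call, and the HNT-34 effect minus that in HL60 was -2.04 ± 0.38 (adjusted p = 0.0012).

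TNFRSF8, the TNF receptor family member CD30, fell in HNT-34, the only line where it was high, from 10.30 and 10.47 to 8.37 and 8.43 (-1.98 ± 0.15, adjusted p = 3.29e-07). In HL60 it rose from 7.57 and 7.62 to 8.07 and 8.14 (0.50 ± 0.15), a call lost with the covariate (0.10, adjusted p = 0.782). NCAM1 fell in HNT-34 from 10.21 and 10.15 to 8.20 and 8.25 (-1.96 ± 0.14, adjusted p = 2.97e-07), and its 3 other passing probe sets changed by -1.61 to -0.39. In AML-193, which had more of it, the change was -0.25 and did not pass. NCAM1 rose in HL60 by 0.60 ± 0.14, close to the array median, a call lost with the covariate (0.57). CD200, a ligand that restrains macrophages, fell in KG1a from 7.31 and 7.38 to 6.53 and 6.26 (-0.95 ± 0.14). Only those 2 vehicle arrays reached the array median, and CD200 was tested only through them. The filter thus drew on the group where CD200 was high, so this call gives no separate support for a fall. CD38 rose in AML-193 (0.42, or 0.28 with the covariate), HNT-34 (0.61) and HL60 (0.28, or 0.36), with neither covariate value called, and did not pass in KG1a (-0.17), the line where it was high. CD7, a T cell and progenitor antigen, rose by 0.29, 0.29 and 0.38 in AML-193, HNT-34 and KG1a. CD70, the ligand of CD27, passed only in AML-193 (0.50), and CD27 passed in no line (-0.12 to 0.06).

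Leukocyte antigens of the SLAM family changed in all 4 lines. CD84, a self-binding SLAM receptor, rose in HNT-34 from 10.09 on both arrays to 12.65 and 12.70 (2.58 ± 0.07, adjusted p = 3.34e-11). All 5 other passing probe sets rose there, by 2.32 to 3.12. It also rose in AML-193 (0.49) and KG1a (0.43). In HL60 the main probe set did not pass (0.13), and the others ran from -1.64 to 1.01. CD48, the ligand of CD244 and CD2, rose in KG1a from 10.08 and 9.93 to 11.16 and 11.22 (1.18 ± 0.10, adjusted p = 7.24e-06). It fell in HL60, its highest line, from 13.55 and 13.52 to 12.21 and 12.50 (-1.18 ± 0.10, adjusted p = 2.24e-06), and in HNT-34 from 10.94 and 11.18 to 10.19 and 10.25 (-0.84 ± 0.10). CD48 rose in AML-193 (0.32 ± 0.10), where its dimmer second probe set fell by 0.73 on the log2 scale. SPN, the sialomucin CD43, fell in AML-193 (-0.86 ± 0.10) and rose in HNT-34 (0.54) and HL60 (0.48), but of its 4 other passing probe sets in AML-193, 1 fell by 1.21 on the log2 scale and 3 gave 0.40, 0.40 and 0.15, none of those called. With the covariate SPN was called in neither AML-193 (-0.52) nor HL60 (0.27).

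The tetraspanins were the family without a fall. Of 6 members, 5 rose in AML-193, 3 in HNT-34, 4 in KG1a and 4 in HL60, none fell, and in the mean effect over the 4 lines all 6 rose, where 20 of 43 members and 23.4% of all genes were higher. With the RNA quality covariate 2 of the 5 AML-193 calls remained, CD9 and CD53, and CD37, CD81 and CD82 were lost (0.46, 0.28 and 0.58). The other lines then had 3, 4 and 5 higher, and none fell. CD9, a partner of integrins on platelets and progenitors, rose in AML-193 from 6.54 and 6.55 to 7.94 and 7.89 (1.37 ± 0.10, adjusted p = 1.01e-06). HNT-34 went from 10.38 and 10.28 to 11.99 and 12.08 (1.71 ± 0.10, adjusted p = 5.29e-08), and HL60 from 6.49 and 6.44 to 7.58 and 7.96 (1.31 ± 0.10, adjusted p = 1.12e-06). In KG1a all 4 arrays stayed between 6.03 and 6.17. The CD9 effect in AML-193 minus that in KG1a was 1.41 ± 0.15 (adjusted p = 3.84e-05), whereas AML-193 and HL60 differed by 0.07 ± 0.15 (adjusted p = 0.74). The 2 other CD9 probe sets were dim and not tested.

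CD53, a tetraspanin of leukocytes, rose in AML-193 from 10.66 and 10.55 to 11.83 and 11.73 (1.18 ± 0.07, adjusted p = 8.64e-08) and in KG1a by 0.43 ± 0.07. A dimmer CD53 probe set gave 0.11 in AML-193. CD82, described as a metastasis suppressor, was the only member higher in all 4 lines: 0.75 in AML-193, 0.36 in HNT-34, 0.61 in KG1a and 0.69 in HL60, with an SE of 0.10 each. With the covariate its AML-193 call was lost (adjusted p = 0.197), and no member was then higher in all 4 lines. In HNT-34 its call was lost without vehicle replicate 2 and without AZA replicate 1, and its second probe set did not pass (0.22). Of all tested genes, 1.03% were called the same way in every line. CD63, a tetraspanin of granules and lysosomes, rose in HNT-34 (0.31), KG1a (0.68) and HL60 (0.62). CD81, part of the B cell co-receptor, rose in AML-193 (0.79) and KG1a (0.42), and CD37 in AML-193 (0.94) and HL60 (0.54).

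Of the 3 complement regulators and CD47, 3 rose and 1 fell in AML-193, 3 and 0 in HNT-34, 2 and 0 in KG1a, and 0 and 2 in HL60. Over all tested genes the shares were 20.7% and 20.3%, 15.4% and 14.8%, 6.56% and 3.37%, and 25.2% and 16% in the same order. CD59, which blocks the membrane attack complex, went in AML-193 from 7.13 and 7.45 to 8.35 and 8.26 (1.02 ± 0.09, adjusted p = 6.25e-06). With the covariate this was 0.52 and no longer passed (adjusted p = 0.0879), and the 3 other passing probe sets gave 0.31 to 1.22. CD59 rose in KG1a by 0.69 ± 0.09. CD55, which speeds the decay of complement convertases, rose in AML-193 from 8.29 and 8.46 to 9.22 and 9.53, just under 2-fold (0.997 ± 0.13), in HNT-34 from 9.93 and 9.66 to 10.73 and 10.77 (0.96 ± 0.13), and in KG1a by 0.46 ± 0.13. HL60 fell from 10.68 and 10.75 to 9.85 and 10.20 (-0.69 ± 0.13, adjusted p = 0.00121). With the covariate CD55 was called in neither AML-193 (0.42, adjusted p = 0.432) nor HL60 (-0.32, adjusted p = 0.264).

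CD46, the cofactor for complement factor I, and CD47 depended on the probe set. The brightest CD46 set changed by -0.24 in AML-193 and did not pass in HL60 (adjusted p = 0.976), whereas the 2 others rose by 1.13 and 1.37 in AML-193 and fell by 2.09 and 1.86 on the log2 scale in HL60. The brightest CD47 set rose in AML-193 (0.63) and HNT-34 (0.27) and fell in HL60 (-0.26), and 4 others fell in AML-193 by 0.50 to 0.90. With the covariate the brightest CD47 set was called in neither AML-193 (0.23) nor HL60 (-0.011). TFRC, the transferrin receptor of dividing cells, rose in HNT-34 (0.27) and HL60 (0.54). Another TFRC set went from 5.97 to 7.64 in AML-193 (1.67) and from 9.64 to 6.89 in HL60 (-2.75).

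Opposite calls by probe sets of a gene were found in the same 2 lines in which the 3′ minus 5′ measure differed between arms. Among the 28 members with several passing probe sets, probe sets were called in opposite directions in 7 for AML-193 (CD300A, CD44, CD46, CD47, CD48, CD84 and CD99) and in 6 for HL60 (CD44, CD47, CD84, IL1RAP, SPN and TFRC). In HNT-34 and KG1a the count was 0. These counts were not taken over all genes with several probe sets. The share of all tested genes called was 41% in AML-193, 41.3% in HL60, 30.2% in HNT-34 and 9.93% in KG1a. Fewer calls leave less room for opposite calls, as in KG1a. The part of RNA quality in the opposite calls was not tested beyond the covariate fit. In that fit 26 of the 29 AML-193 calls and 24 of the 27 HL60 calls kept their sign, while 22 and 12 lost their call. A call could be lost with little change of value, as for CD84 in AML-193. In AML-193 the calls kept were those of KIT, CLEC7A, CD96, CD70, CD52, CD9 and CD53. Calls lost there and not yet described were CD7 (0.29, or 0.47 with the covariate), CD48 (0.32, or 0.17), CD84 (0.49, or 0.52) and CD46 (-0.24, or -0.014). In HL60 they were ENG (0.18, or 0.19) and TFRC (0.54, or 0.25).

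**Figure D4:**
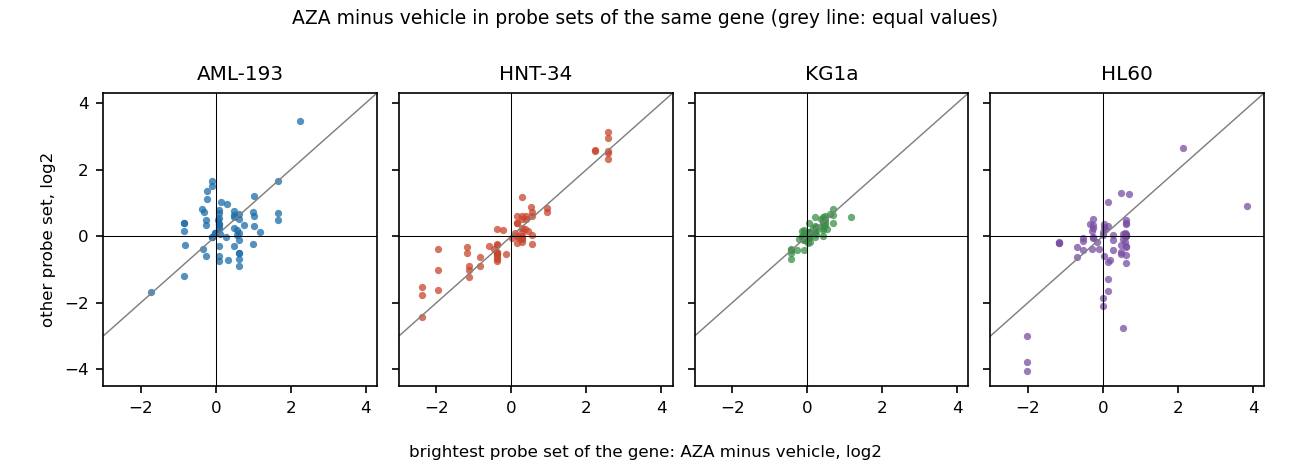
AZA minus vehicle (log2) in the brightest probe set of a member (x axis) against each other passing probe set of the same member (y axis), in 4 panels for the lines; the grey line marks equal values. Of 62 points a line, none in KG1a and 6 in HNT-34 have opposite signs with the brightest or the other set called, against 20 in AML-193 and 21 in HL60, where many lie in quadrants of opposite sign, the farthest being TFRC in HL60, at -2.75 against 0.54 in the brightest set.

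The effect of AZA differed between the lines for 39 of the 43 tested members by the moderated F-test, against 57.1% of all tested genes. IL2RA, THY1, CD27 and CD82 did not pass it. With the RNA quality covariate the count was 32, and the share of all genes in that fit is not given here. In all, 19 members were called higher in a line and lower in another (44.2%, against 20.2% of all tested genes). With the covariate these were 8 (18.6%, against 3.68%): KIT, CLEC7A, LILRB2, CD93, CD44, CD99, CD96 and CD48. In the fit without it 3 members (IL2RA, THY1 and CD27) were called in no line, and none was lower in all 4. Called in all 4 lines were KIT, SIGLEC6, CD300A, CD48, CD55 and CD82. The range of levels over the lines was narrower after AZA than before in 31 of 43 members (72.1%), against 57.1% of all genes, and its median went from 2.34 to 1.95. Since the members were chosen with earlier results known, these shares do not set them apart from all genes.

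Calls below 2-fold were less stable than the larger ones, which had been picked by size on these same arrays. Of the 99 calls, 29 were lost when at least 1 of the 16 arrays was left out, and 70 were kept in every case. In HNT-34 the calls of CLEC12A, CD44, ENG, CD7, CD47 and TFRC were lost whichever of its 4 arrays was left out, and that of CD82 without 2 of them. In AML-193 those of CSF2RA, CSF3R, IL3RA, CD300A, CD93, CD48 and CD46 were lost without vehicle replicate 1, and CD7 without vehicle replicate 2. Without vehicle replicate 1 the values of CSF2RA, CD93 and CD46 were 0.38, 0.21 and -0.16. In KG1a those of SIGLEC6, CLEC12A, LILRB2, CD7, CD81 and CD55 were lost without AZA replicate 1 or 2. In HL60 CSF2RA, IL1RAP, SIGLEC6, CD300A, ENG and CD47 were lost without AZA replicate 1, and TNFRSF8 and CD38 without AZA replicate 2. Without AZA replicate 1 the HL60 values of CSF2RA, CD300A and CD47 were -0.31, 0.16 and -0.16. SIGLEC6 and ENG in HL60, and CLEC12A and CD55 in KG1a, were also lost without arrays of other lines.

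Other genes of the receptor pathways were read from companion lists. Of all tested genes, 20.7% rose and 20.3% fell in AML-193, and 15.4% and 14.8% did in HNT-34. The shares were 6.56% and 3.37% in KG1a and 25.2% and 16% in HL60. List counts here and below were not tested against these shares and are not read as results about a pathway. The RNA quality covariate left 0 of 23 other cytokine receptors called in AML-193 and 3 in HL60, 1 and 4 of 22 signalling genes, and 1 and 1 of 12 feedback targets. Of the 4 tested chains that pair with member receptors, 4 rose in HNT-34, 3 in KG1a and 1 in AML-193, while in HL60 1 rose and 2 fell. With the covariate 1 was still called higher in AML-193, and in HL60 1 was called higher and 1 lower. IL2RG, the common gamma chain, rose in HNT-34 from 7.37 to 9.70 (2.33) and fell in HL60 from 11.50 to 10.75 (-0.75). CSF2RB, the beta chain shared by the GM-CSF, IL-3 and IL-5 receptors, rose in KG1a (1.34), AML-193 (0.88) and HNT-34 (0.68), so in HNT-34 it moved opposite to CSF2RA. IL1RL1, which uses IL1RAP as its partner, rose in KG1a (1.59), HNT-34 (1.17) and HL60 (0.92).

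Of 14 tested ligands and partners, 4 rose and 1 fell in AML-193, 3 and 4 in HNT-34, 2 and 1 in KG1a, and 4 and 2 in HL60. With the covariate 1 was called higher and 0 lower in AML-193, and 2 and 2 in HL60. TNFSF8, the ligand of TNFRSF8, fell in HNT-34 from 10.94 to 8.77 (-2.17) beside its receptor, and in KG1a by 0.85 on the log2 scale. KITLG, which encodes stem cell factor, rose in HL60 from 5.30 to 6.80 (1.5), where KIT rose. Its vehicle value lay below the mean of genes of other tissues in that group (6.52), so this change compares signals and is not a fold of transcript. CD2, which binds CD48, rose in KG1a (1.0), HNT-34 (0.97) and HL60 (0.49), and IL1B rose in AML-193 (2.10) and HNT-34 (1.02).

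Of 12 STAT5 and cytokine feedback targets, 2 rose and 6 fell in AML-193, 2 and 4 in HNT-34, 2 and 0 in KG1a, and 5 and 2 in HL60. In HNT-34, where KIT, FLT3 and CSF2RA fell, the feedback inhibitors CISH (12.11 to 10.75, -1.36), SOCS2 (-0.98) and SOCS3 (-0.81) fell, and the kinase PIM2 rose (1.12). In AML-193 SOCS1 and the kinase PIM1 fell, each by 0.93 on the log2 scale, and ID1 rose (1.10). Of 22 genes of JAK-STAT and receptor signalling, 7 rose and 5 fell in AML-193, 5 and 5 in HNT-34, 1 and 0 in KG1a, and 14 and 2 in HL60. The single KG1a call was GAB2 (1.15), an adaptor of KIT and cytokine receptors. JAK3, the kinase of the common gamma chain, rose in HNT-34 (0.82) and HL60 (1.06). Of 23 other cytokine receptors, 12 rose and 1 fell in AML-193, 9 and 9 in HNT-34, 6 and 2 in KG1a, and 8 and 6 in HL60. Among these, IL18R1 rose in HNT-34 (2.31), IL6R fell there (-1.51), TGFBR2 rose in AML-193 (1.57) and CXCR4 rose in KG1a (1.56). With the covariate the AML-193 values of TGFBR2, PIM1 and ID1 (1.02, -0.84 and 0.56) and the HL60 values of JAK3 and CD2 (0.79 and 0.37) were not called.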

How the data were processed

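Expression was measured in 4 AML lines, vehicle and AZA, on 16 arrays in 8 groups of 2. The authors deposited log2 values from RMA in the affy package, which the submitters' processing notes name (versions not given in the sources used here). They span 3.26 to 15.34, and quantiles differed between arrays by at most 0.00404, so a shift of all genes would not be seen. Of 54675 probe sets, 41091 carried 1 gene symbol, 1801 several and 11783 none. The 62 array controls were left out. Depth does not apply to arrays, and their number limits the precision.

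limma 3.58.1 in R 4.3.3 fitted 8 group means (8 residual and 4.80 prior degrees of freedom). P-values were adjusted by Benjamini-Hochberg over 14038 genes, with 0.05 as threshold. All groups shared 1 estimate of the spread. Per-array values are given for members past the threshold with a change of at least 1 on the log2 scale in a line, and for members with a wide vehicle range. Members and companion lists were chosen with earlier results of these data known. On simulated data with known answers over 14038 genes, changes of 0.5 were recovered in 71.6% of cases in AML-193, 70.1% in HNT-34, 71.6% in KG1a and 58.2% in HL60, and changes of 1 in 98.5%, 97.0%, 95.5% and 97.0%. False calls made up 7.69%, 8.72%, 2.20% and 3.41% of calls. Replicate numbers follow accession order and pair no arrays. Tried were averaged or other probe sets, filters, scalings, an intensity trend, the RNA quality covariate and leaving out arrays.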

Additional observations from a re-analysis of the deposited data

Results flagged for a closer look

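The AZA effect differed between the lines by the moderated F-test for 39 of the 43 tested members. The pairs of lines below were singled out because a member was called higher in 1 line and lower in the other and the test of the difference itself passed. Each value is the first line's effect minus the second's, on the log2 scale. No cause of these differences was tested.

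For HNT-34 minus HL60 the difference was -4.67 for CD93, -2.56 for NCAM1, 2.52 for SIGLEC6, -2.49 for TNFRSF8, -1.08 for CD99, -1.0 for CD44, -0.86 for CD300A and -0.40 for ENG. For AML-193 minus HNT-34 it was 4.04 for CLEC7A, -2.26 for CD96, 1.74 for CSF2RA, -1.39 for SPN and -0.62 for CD46. For AML-193 minus HL60 it was 1.69 for CD55 and 0.89 for CD47. CLEC12A gave -1.35 for AML-193 minus KG1a, KIT -2.75 for HNT-34 minus KG1a, CD48 2.36 for KG1a minus HL60, and LILRB2 -1.15 for KG1a minus HL60. Comparisons that involve AML-193 or HL60 carry the RNA quality difference of those lines. With the RNA quality covariate 8 of these 19 pairs were still called in opposite directions: CD93, CLEC7A, KIT, CD48, CD96, LILRB2, CD99 and CD44. Of the other 11, the difference itself still passed for NCAM1 (-2.52), SIGLEC6 (2.12), TNFRSF8 (-2.03), CSF2RA (0.89), SPN (-1.09) and CD300A (-0.54), with both CSF2RA effects then below 0 (-0.31 and -1.21) and both CD300A effects too (-0.55 and -0.0077). It did not pass for CD55 (0.75), CLEC12A (-0.46), CD47 (0.24), CD46 (-0.41) and ENG (-0.41). Among the 8 pairs still called in opposite directions, other probe sets of CD44 and CD99 in HL60 and of CD44 in HNT-34 had the opposite sign. The CD44 call in HNT-34 was also lost whichever of the 4 arrays of that line was left out.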

How the results depend on the processing

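Arrays give no depth, and 2 arrays a group limit the precision. Counts of members called kept within 1.5 times of the reported count under other filters, renormalization, centring, an intensity trend, averaged probe sets and fits on the arrays of 1 comparison, with 2 exceptions. The covariate left 7 calls in AML-193, against 2.66% of all tested genes in that fit, and 16 in HL60. KG1a fell to 9 without AZA replicate 1 or 2. With 1 array left out the counts ran from 23 to 29 in AML-193, 21 to 29 in HNT-34, 9 to 16 in KG1a and 21 to 27 in HL60, from 29 to 31 for the mean effect, 35 to 39 for the F-test of the effects and 40 to 42 for that of vehicle levels. Scalings moved the median of all genes by under 0.1. The cause of the reversals that follow was not tested.

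With the covariate, sign or call reversed in AML-193 for CSF2RA -0.31, CLEC12A 0.050 and CD300A 0.064, and in HL60 for CSF2RA 0.070, SIGLEC6 0.049 and CD300A -0.0077. With all probe sets of a gene averaged, reversals in AML-193 were CD300A 0.15, CD99 0.20, CD48 -0.20, CD46 0.75, CD47 -0.39 and TFRC 0.56, and in HL60 IL1RAP 0.012, CD300A -0.027, ENG -0.27, CD47 0.15 and TFRC -0.49. With another probe set of the gene, values of opposite sign in AML-193 were CSF2RA -0.11, CD300A 0.81, CD44 -0.74, CD99 0.73, CD7 -0.036, NCAM1 0.48, CD48 -0.73, CD84 -0.30, SPN 0.40, 0.40 and 0.15, CD46 1.13 and 1.37, CD55 -0.23, CD47 -0.50, -0.68, -0.90 and -0.50 and TFRC 1.52 and 1.67. In HL60 they were IL1RAP 0.37, SIGLEC6 0.16, CD300A -0.42, CD44 -0.56, -0.79 and -0.32, CD99 -0.31, ENG -0.72, NCAM1 -0.17, CD84 -1.28, -0.77 and -1.64, SPN -0.55, -0.48 and -0.27, CD59 -0.60, CD47 0.32, 0.24 and 0.50 and TFRC -2.75 and -0.085. In HNT-34 they were CD44 0.20, ENG 0.19, SPN -0.24, CD47 -0.070 and -0.16 and TFRC -0.081. KG1a had none.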
